A study of Mus musculus with 4 samples.

Results

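Sodium that is not reabsorbed in the proximal tubule reaches a chain of distal segments, each with its own entry path. The thick ascending limb (TAL) takes it up with potassium and chloride through NKCC2 (Slc12a1), the distal convoluted tubule (DCT) with chloride through NCC (Slc12a3), and the connecting tubule (CNT) and collecting duct principal cells (PC) through the epithelial sodium channel ENaC, built of the subunits Scnn1a, Scnn1b and Scnn1g. The kinases WNK1 and WNK4 act on the 2 cotransporters through the kinase SPAK (Stk39), and aldosterone acts on the late segments through the mineralocorticoid receptor (Nr3c2) and one of its target genes, the kinase Sgk1. SGLT2 (Slc5a2) moves sodium and glucose together out of the early proximal tubule, so the comparison asks whether these 10 genes stood at another RNA level in distal cells when SGLT2 does not work.

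The 10 genes were taken by symbol, and all 10 were found once each among the 32285 genes of the count tables. The data are 4 single-cell RNA-Seq libraries of whole kidney from male C3H mice aged 18 weeks, 1 library for each condition. SP (Sweet Pee) mice have 2 alleles of Slc5a2 with a missense mutation that abolishes SGLT2 function, and WT mice have none. Each genotype was fed normal diet (ND) or high-fat diet (HFD, 60% of calories from fat) for 8 weeks from the age of 10 weeks. The labels of the WT-ND and SP-ND libraries name no diet, and ND was read from the study's design, so every ND value rests on that reading. The number of mice behind each library is not given in the sources used here. With 1 library per condition no difference can be tested, mice and libraries cannot be told apart from genotype and diet, and every interval given is a 95% interval that covers counting error only and stands in square brackets after a ratio. A level is the summed UMIs (unique molecular identifiers, 1 per captured RNA molecule) of a gene per 1000000 UMIs of the pooled cells of a class (CPM), and a difference is the log2 ratio of 2 such levels. Where 4 values stand without labels, the first 2 are WT-ND and WT-HFD, and then come SP-ND and SP-HFD.

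After the filter on genes and mitochondrial UMIs that the study states (200 to 5000 genes and under 50% mitochondrial UMIs), 34789 of 58660 barcodes were left, 9700 and 10869 in the WT libraries and 6754 and 7466 in the SP libraries. The study also removed doublets, and its doublet step was not repeated here. Barcodes outside the gene range numbered 516, 1600, 1713 and 1612. The libraries held 90728590 to 115117649 UMIs, 32.7% to 49.8% of barcodes had at least 50% mitochondrial UMIs, and any 2 libraries shared 54 to 77 barcodes, of which at most 3 were distal cells in both. Slc5a2 itself was at 311 CPM in WT-ND and 216 in WT-HFD, against 58.9 in SP-ND and 98.2 in SP-HFD in proximal tubule cells. The mutation changes a codon, so the RNA level does not check the genotype labels.

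The 4 distal classes were set by UMIs of marker genes, none of them among the 10 genes. They held 8258 cells, with 832, 837, 942 and 947 TAL cells, 626, 417, 439 and 577 DCT cells, 517, 221, 493 and 307 CNT cells and 257, 282, 198 and 366 PC. All own markers of each class (6 for TAL, 5 for each other class) were higher in it than in the other cells, and no class had a marker of another class among its 10 leading genes. These markers set the classes, and most cells with markers of other classes were left out. Neither result is therefore a separate check of the classes. Proximal tubule markers show free RNA and stray cells of proximal origin only. They took 0.424%, 0.214%, 0.0739% and 0.126% of PC UMIs and 0.363%, 0.165%, 0.0681% and 0.109% of TAL UMIs. In all 4 classes they were highest in WT-ND and lowest in SP-ND. Proximal tubule cells were 38.4%, 30.0%, 20.3% and 12.8% of the kept cells. Umod, a TAL marker, was at 336, 287, 294 and 221 CPM in PC, lowest in SP-HFD. The CNT class reaches back into the late DCT, as Slc12a3 shows. Cells that also scored for another class were left out, unless the classes were DCT and CNT or CNT and PC. Cells that scored for both TAL and DCT were thus left out, although these segments adjoin. The cells left out in this way were 7.69% to 17.0% of the kept cells, the most in WT-HFD.

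Each cotransporter stood highest in its own segment, and no library departed from that order. Slc12a1 in TAL was at 5894 CPM in WT-ND and 4330.2 in WT-HFD, against 5369 in SP-ND and 4818 in SP-HFD. Thin limb came next at 119 ± 52.4 CPM (mean ± SD over the 4 libraries), and the other 3 distal classes lay between 50.6 and 129 CPM, close to the 65.3 to 102 CPM of endothelial cells, which do not make it. Levels in the other 3 distal classes are therefore read as background. At such levels Slc12a1 in CNT (73.5, 63.6, 125 and 124 CPM) was past 1.5-fold higher in SP on both diets. In PC (123, 77.3, 83.1 and 50.6 CPM) it was past 1.5-fold lower on HFD in both genotypes. Slc12a3 in DCT was at 6321 CPM in WT-ND and 5736 in WT-HFD, against 7094 in SP-ND and 5545 in SP-HFD. In the CNT class it was at 2404, 2637, 2689.7 and 2984 CPM and in TAL and PC at 17.3 to 68.2 CPM, near the 21.7 to 35.5 CPM of endothelial cells. Proximal tubule cells held 65.6, 142, 60.9 and 51.2 CPM of Slc12a1 and 31.9, 143, 24.8 and 29.5 CPM of Slc12a3, most in WT-HFD. The paper reports Slc12a1 in an injured proximal tubule cluster that it found mainly in WT-HFD. Whether such cells or free RNA gave the WT-HFD levels was not tested.

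**Figure D1:**
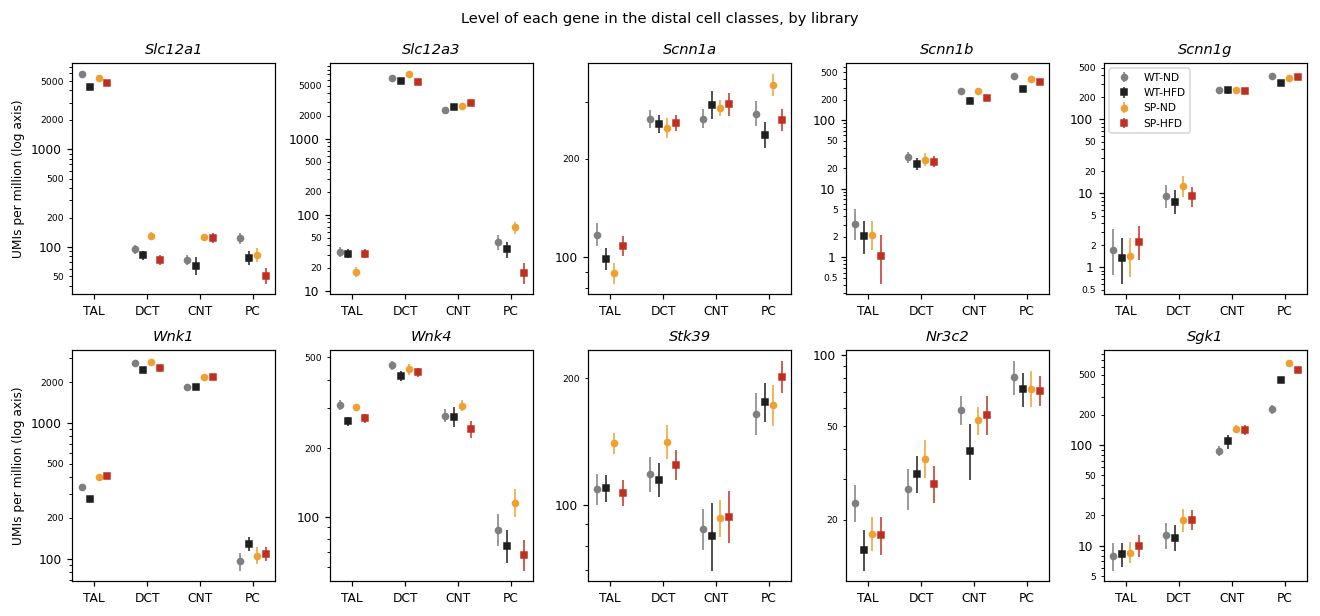
Level of each of the 10 genes in thick ascending limb (TAL), distal convoluted tubule (DCT), connecting tubule (CNT) and principal cells (PC), as CPM on a log axis that differs between panels; each point is 1 library and bars are 95% Poisson intervals for counting error. Slc12a1 and Slc12a3 stand in 1 or 2 classes, the ENaC beta and gamma subunits in CNT and PC, Wnk1 in DCT and CNT, and in PC Sgk1 runs from 226 in WT-ND to 652 in SP-ND.

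In its own segment neither cotransporter moved one way with the genotype. Slc12a1 was lower in SP-ND than in WT-ND (log2 ratio -0.13 [-0.16 to -0.11]) and higher in SP-HFD than in WT-HFD (0.15 [0.13 to 0.18]). For Slc12a3 the directions were the other way round, 0.17 [0.14 to 0.19] on ND and -0.05 [-0.08 to -0.02] on HFD. In these segments the SP and WT libraries overlapped for both genes, and such ratios were common. Of the genes counted in TAL, 22.1% lay at least as low as Slc12a1 on ND. Of those counted in DCT, 26.5% lay at least as high as Slc12a3 on ND. Diet went with lower levels of both in these segments in both genotypes. Slc12a1 stood -0.44 [-0.47 to -0.42] in WT-HFD against WT-ND and -0.16 [-0.18 to -0.14] in SP-HFD against SP-ND, and Slc12a3 -0.14 [-0.17 to -0.11] and -0.36 [-0.38 to -0.33]. None of these 8 ratios reached 1.5-fold. In the CNT class both SP libraries were above both WT libraries for Slc12a3, at 0.16 [0.12 to 0.20] on ND and 0.18 [0.12 to 0.24] on HFD. Of the genes counted in CNT, 24.3% and 37.1% lay at least as high. There Slc12a3 was also higher on HFD, at 0.13 [0.08 to 0.19] in WT and 0.15 [0.10 to 0.20] in SP.

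The channel subunits differed in where they began. Scnn1a, the pore subunit that the channel cannot do without, was nearly level from DCT to PC, at 257 ± 7.23 CPM in DCT, 285 ± 13.2 CPM in CNT and 279 ± 42.7 CPM in PC, where PC overlapped both DCT and CNT, and was at 103 ± 12.1 CPM in TAL and 235 ± 7.45 CPM in intercalated cells. Scnn1b was at 375 ± 66.8 CPM in PC, 234 ± 37.9 CPM in CNT, 107 ± 11.04 CPM in intercalated cells and 25.9 ± 2.45 CPM in DCT, with no overlap between neighbours in that order. Scnn1g followed the same order, with 358 ± 35.3 CPM, 249.7 ± 3.24 CPM, 45.7 ± 12.5 CPM and 9.59 ± 2.02 CPM. In TAL the beta and gamma subunits were at 1.03 to 3.08 CPM and 1.32 to 2.21 CPM, as low as in endothelial cells (1.81 to 4.06 CPM and 1.09 to 4.33 CPM). Levels are compared between classes of 1 gene and not between genes, since 3′ counts do not put genes on a common scale.

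In CNT the subunits hardly varied with genotype. Scnn1g was at 254 CPM in WT-ND and 249.4 in WT-HFD, against 250.2 in SP-ND and 246 in SP-HFD, and its 4 ratios lay between -0.03 and -0.02. The interval of the genotype ratio was -0.15 to 0.11 on ND and -0.22 to 0.18 on HFD, which for counting error leaves no room for a 1.5-fold difference between these libraries. Scnn1a was at 266, 294, 287 and 294 CPM, with genotype ratios of 0.11 [-0.02 to 0.23] and 0.00 [-0.18 to 0.19]. Scnn1b, at 264, 193, 268 and 211 CPM, was lower in both HFD libraries than in both ND libraries (-0.45 [-0.65 to -0.26] in WT and -0.35 [-0.51 to -0.19] in SP).

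In PC the subunits varied more, and most with WT-HFD. Scnn1b was at 449 CPM in WT-ND and 290.2 in WT-HFD, against 398 in SP-ND and 362 in SP-HFD, so that WT-HFD was the lowest and WT-ND the highest. It was 1 of 2 pairs of a gene and a class past 1.5-fold lower in WT-HFD against WT-ND, at -0.63 [-0.79 to -0.47]. Over all genes and distal classes 6.58% were past that fold, and 11.8% of those counted in PC. Scnn1g was at 387, 307, 364 and 374 CPM, again lowest in WT-HFD, and Scnn1a at 275, 237, 338 and 264 CPM, lowest in WT-HFD and highest in SP-ND. The genotype ratios of Scnn1b had opposite signs, -0.17 [-0.32 to -0.03] on ND and 0.32 [0.17 to 0.47] on HFD. Those of Scnn1a were 0.29 [0.12 to 0.47] and 0.16 [-0.02 to 0.33], and those of Scnn1g -0.09 [-0.25 to 0.07] and 0.29 [0.14 to 0.44].

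Wnk1 marked the DCT and CNT. This gene makes a long kinase and a short form without kinase activity that the DCT makes in large amounts, and counts at the 3′ end do not separate them. It was at 2637 ± 179.7 CPM in DCT and 2009 ± 194 CPM in CNT, against 384 ± 70.0 CPM in intercalated cells, 355 ± 59.9 CPM in TAL and 95.2 to 129 CPM in PC. DCT and CNT did not overlap each other or the classes below them, whereas TAL overlapped intercalated cells, podocytes and endothelial cells. In DCT, where the level was highest, the genotype ratios were 0.04 [0.00 to 0.08] and 0.05 [0.01 to 0.09].

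In TAL, Wnk1 was higher in both SP libraries than in both WT libraries, at 338 CPM in WT-ND and 277 in WT-HFD, against 398 in SP-ND and 405 in SP-HFD. Genotype ratios were 0.24 [0.15 to 0.32] on ND and 0.55 [0.46 to 0.63] on HFD, and 1.12% of the genes counted in TAL were as far up as the latter, a 1.46-fold difference. After thinning each cell to 1000 UMIs, 22.5%, 18.6%, 23.6% and 23.2% of TAL cells had a Wnk1 UMI, so that WT-HFD stood apart and WT-ND was close to the SP libraries. DCT markers took 0.0515%, 0.0355%, 0.0562% and 0.0386% of TAL UMIs, more in SP than in WT on each diet. Most of this was Abca13, at 426, 257, 477 and 299 CPM. Sgms2 and Trpm6 were also higher in SP on each diet, whereas Pvalb (32.8, 49.99, 24.8 and 32.8 CPM) and Emx1 were lower. Slc12a3 in TAL was at 32.8, 30.9, 17.7 and 30.8 CPM, not higher in SP on either diet. The part of DCT markers in this Wnk1 result was not tested. In CNT, Wnk1 was at 1835, 1847, 2172 and 2181 CPM, with both SP libraries above both WT libraries and the same ratio on each diet, 0.24 [0.20 to 0.29] and 0.24 [0.17 to 0.31]. This CNT difference depended on how the class was drawn. When classes were taken from clusters of each library, the levels were 1939, 1929, 1785 and 1849 CPM and both SP libraries were below both WT libraries, and among the CNT cells that also carried DCT markers they were 3086, 2874, 3701 and 2995 CPM, where SP-HFD was below WT-ND. In PC, Wnk1 was at 95.2, 129, 105 and 108 CPM, and the libraries of the genotypes overlapped.

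Wnk4 was more widely spread. It was at 438 ± 19.2 CPM in DCT, 286 ± 23.2 CPM in TAL, 275 ± 26.7 CPM in CNT, 124 ± 8.18 CPM in intercalated cells and 86.3 ± 20.9 CPM in PC, and of these neighbours only TAL and CNT overlapped. Its level in DCT was 461 CPM in WT-ND and 416 in WT-HFD, against 443 in SP-ND and 431 in SP-HFD, with genotype ratios of -0.06 [-0.16 to 0.05] and 0.05 [-0.05 to 0.15]. Those in TAL, where it was at 310.4, 263, 302 and 271 CPM, were -0.04 [-0.13 to 0.05] and 0.04 [-0.05 to 0.14]. In both classes the intervals stayed well inside 1.5-fold in either direction. The 1 pair past 1.5-fold in SP-HFD against SP-ND, where 4.22% of all pairs of a gene and a distal class were as much lower, was Wnk4 in PC, at -0.76 [-1.06 to -0.46]. There its 4 levels were 87.9, 74.3, 115 and 67.9 CPM, with both ND libraries above both HFD libraries and the genotypes overlapping.

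Stk39 was the flattest of the 10 genes over the distal classes. It was at 178 ± 16.1 CPM in PC, 125 ± 11.8 CPM in DCT, 116 ± 15.9 CPM in TAL and 89.6 ± 4.46 CPM in CNT, of which DCT and TAL overlapped, and at 8.94 to 12.7 CPM in endothelial cells. In DCT, where the kinase acts on NCC, its level was 118 CPM in WT-ND and 115 in WT-HFD, against 141 in SP-ND and 124 in SP-HFD. Both SP libraries were above both WT libraries, yet the HFD ratio of 0.12 [-0.06 to 0.30] spans 0 and the ND ratio was 0.26 [0.06 to 0.45]. In CNT it was at 87.5, 84.3, 92.9 and 93.7 CPM, a like order with both intervals across 0. DCT markers took 0.169%, 0.203%, 0.190% and 0.234% of CNT UMIs, more in SP than in WT on each diet. Stk39, Wnk1 and Slc12a3 all stood higher in DCT than in CNT, and the part of DCT markers in their CNT orders was not tested. With CNT cells that carried markers of a neighbour left out, both SP libraries were still above both WT libraries for Stk39 and Wnk1. The Stk39 ratio in CNT was then 0.01 on ND and 0.63 on HFD. The largest genotype ratio of Stk39 as reported was in TAL on ND (0.36 [0.22 to 0.51]), set by SP-ND at 140.1 CPM against 107 to 109.5 CPM in the other 3 libraries.

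The mineralocorticoid receptor was low in every class and higher in later segments. Nr3c2 was at 73.8 ± 4.62 CPM in PC, 51.7 ± 8.58 CPM in CNT, 50.6 ± 9.14 CPM in intercalated cells, 30.8 ± 4.12 CPM in DCT and 18.3 ± 3.66 CPM in TAL, where endothelial cells stood as high (18.5 ± 4.07 CPM). In PC its level was 80.7 CPM in WT-ND and 71.8 in WT-HFD, against 72.1 in SP-ND and 70.7 in SP-HFD, with genotype ratios of -0.16 [-0.51 to 0.19] and -0.02 [-0.35 to 0.31]. The other classes had larger ratios whose intervals leave out 0 on 1 diet each, at 0.51 [0.03 to 1.00] in CNT on HFD, 0.42 [0.02 to 0.83] in DCT on ND and -0.43 [-0.78 to -0.07] in TAL on ND. On the other diet they were -0.15 [-0.43 to 0.14], -0.14 [-0.51 to 0.23] and 0.20 [-0.19 to 0.60], each of the opposite sign. The counts behind the levels are small, 131 to 176 UMIs in PC and 55 to 212 in CNT, so that in PC the interval on ND reaches down to -0.51. The pair past 1.5-fold, Nr3c2 in TAL in WT-HFD against WT-ND (-0.65 [-1.05 to -0.26]), rests on 102 and 122 UMIs at levels of 14.95 and 23.5 CPM, near those of endothelial cells.

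Sgk1 carried the largest genotype differences of the 10 genes. The kinase keeps ENaC at the cell surface by acting on the ubiquitin ligase NEDD4-2 (Nedd4l), and its gene is switched on by aldosterone and by glucocorticoids. In PC it was at 226 CPM in WT-ND and 447 in WT-HFD, against 652 in SP-ND and 558 in SP-HFD, with WT-ND well below the other 3 libraries and both SP libraries above both WT libraries. SP-ND stood 2.88-fold above WT-ND (log2 ratio 1.53 [1.36 to 1.69]), as far as 0.17% of the genes counted in PC. On HFD the ratio was 0.32 [0.20 to 0.44], as far as 16.6% of genes. Between the diets, WT-HFD stood 1.98-fold above WT-ND (0.99 [0.81 to 1.16]), while SP-HFD was below SP-ND (-0.22 [-0.34 to -0.11]).

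The difference was spread over cells rather than held by a few. After each cell was thinned to 1000 UMIs, which left out 0 to 5 PC per library, 19.4%, 34.3%, 41.9% and 37.6% of PC had a Sgk1 UMI. Unthinned, the shares were 51.8%, 70.9%, 85.9% and 80.9%, at median depths of 5565, 5702, 8788 and 5848 UMIs per cell. In TAL, which serves as the class with almost none, the thinned shares were 0.62%, 1.49%, 1.00% and 0.772%. The median PC had 0.823, 2.77, 5.61 and 4.35 Sgk1 UMIs per 10000, and the 10% of PC with the most held 47.5%, 42.5%, 29.8% and 34.8% of all Sgk1 UMIs.

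Other measures were read in the same PC. The 9 early genes that tissue digestion induces took 0.789%, 0.538%, 0.644% and 0.622% of PC UMIs together, highest in WT-ND, where Sgk1 was lowest. Fos, Jun, Junb, Atf3 and Ier2 were highest in WT-ND. Egr1 was highest in SP-ND (1549 CPM, against 1544 in WT-ND), and Dusp1, Hspa1a and Hspa1b were highest in WT-HFD. Endothelial cells, the class with the most Sgk1, had 957, 919.6, 976 and 699 CPM, lowest in SP-HFD, and endothelial markers took at most 0.0123% of PC UMIs, most in WT-ND. Aqp2, the vasopressin-regulated water channel and a PC marker, was at 6764, 8556, 9509.5 and 8143 CPM, lowest in WT-ND and highest in SP-ND as Sgk1 was. None of the other PC markers was both. Aqp3 was at 2519, 2375, 2760 and 2565 CPM and Aqp4 at 740, 328, 860 and 323 CPM. Apela was at 456, 556, 501 and 530 CPM and Gata3 at 363, 324, 365 and 320 CPM. The part of PC marker levels in the Sgk1 result was not tested. The proximal tubule markers ran the other way, highest in WT-ND and lowest in SP-ND. With an estimate of free RNA taken away, Sgk1 was at 197, 446, 670.1 and 577 CPM. The estimate was 10% of UMIs in each library, with the profile of pooled podocytes, endothelial and immune cells. Since endothelial cells had the most Sgk1, this estimate cannot give the free RNA of this gene. Most PC carried a thin limb marker UMI, and in those that did not Sgk1 was at 205, 378, 839 and 510.4 CPM, in 49, 63, 24 and 89 cells.

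**Figure D2:**
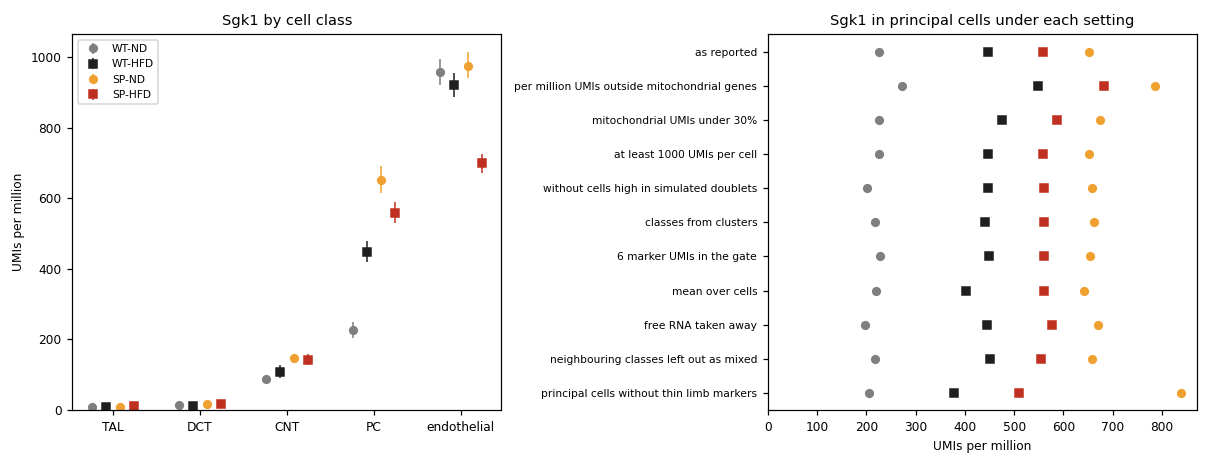
Left, Sgk1 as CPM in the 4 distal classes and in endothelial cells, 1 point per library with 95% Poisson intervals for counting error. Right, Sgk1 in principal cells in each library as reported and under alternative settings of the processing. The order WT-ND, WT-HFD, SP-HFD, SP-ND is the same in every row. Ratios centred on the class median and no filter on low genes, which leave these levels as they are, are not drawn.

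In CNT, Sgk1 was at 87.8 CPM in WT-ND and 109 in WT-HFD, against 146 in SP-ND and 142 in SP-HFD, again with both SP libraries above both WT libraries. The genotype ratio was 0.73 [0.53 to 0.94] on ND and 0.39 [0.10 to 0.68] on HFD. In DCT it was at 12.7, 12.05, 18.0 and 18.2 CPM on 46 to 80 UMIs, with ratios of 0.50 [-0.08 to 1.09] and 0.59 [0.06 to 1.14]. Both SP libraries were above both WT libraries there under 9 of 12 alternative settings, some of which could not change the order in DCT. With free RNA taken away, the mean in DCT fell under 10 CPM, which counts as not above. The HFD ratio turned to -0.32 when cells were weighted equally. In TAL it was at 7.9 to 10.0 CPM, with a mean under the 10 CPM that a pair needed to be counted. Outside the distal classes, Sgk1 was at 51.4, 87.3, 50.9 and 76.2 CPM in intercalated cells, at 15.9, 22.8, 58.0 and 12.3 CPM in proximal tubule and at 56.4, 156, 81.7 and 155 CPM in thin limb, none of which followed the order in PC.

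Because aldosterone and glucocorticoid receptors bind DNA at a known element, the RefSeq windows from 250 bases before to 50 bases after each listed start (GRCm38.p6) were searched for it. Windows were found for 9 of the 10 genes. The element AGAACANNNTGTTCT, which reads the same on both strands, was in 1 of the 14 windows of these genes and in 3 of all 32851 windows (0.00913%). It was in 1 of the 6 windows of Sgk1. Its 6-letter arms (TGTTCT or AGAACA, so either strand, and overlapping the full element where that occurs) were in 3 windows of these genes, all of Sgk1, and in 19.0% of all windows. The 250 bases before that start are shown with the full element in capitals, since Sgk1 is the gene with the largest differences here; counts at the 3′ end do not tell which start was used, and a match of letters is not a bound site.
Sgk1 (GRCm38.p6, chr10:21993640-21993889, plus strand): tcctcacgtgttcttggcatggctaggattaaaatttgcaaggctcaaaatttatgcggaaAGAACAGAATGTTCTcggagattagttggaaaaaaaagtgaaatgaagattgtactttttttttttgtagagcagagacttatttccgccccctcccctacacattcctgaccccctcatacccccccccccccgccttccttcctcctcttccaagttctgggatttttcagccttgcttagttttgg
The element lies 175 to 189 bases before the start, and 1 further 6-letter arm lies elsewhere in the stretch. In the same search, no window of Per1, Fkbp5, Klf9 or Tsc22d3 held the full element. These genes are on the aldosterone and glucocorticoid response list read below.

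Counted over all genes, few pairs passed 1.5-fold. Of the 28 pairs of a gene and a class in which it works (Slc12a1 in TAL, Slc12a3 in DCT, the 3 subunits in CNT and PC, and the 5 regulators in all 4 classes), 27 had a mean of at least 10 CPM. In SP-ND against WT-ND, 2 of 27 were at least 1.5-fold higher, Sgk1 in CNT and PC, where 2.61% of all 30448 pairs of a gene and a distal class were, and 0 were lower, where 3.7% were. In SP-HFD against WT-HFD, 1 was higher, Sgk1 in DCT (3.33% of all pairs), and 0 lower (2.78%). The median log2 ratio of the 27 pairs was 0.11 on ND and 0.13 on HFD, beside 0.02 and 0.05 over all pairs.

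For the diet, WT-HFD against WT-ND had 1 higher pair, Sgk1 in PC (5.37% of all pairs), and 2 lower, Scnn1b in PC and Nr3c2 in TAL (6.58%). SP-HFD against SP-ND had 0 higher (5.43%) and 1 lower, Wnk4 in PC (4.22%). Counts of 0 to 2 among 27 pairs are near these shares of all pairs, and those for the genotype rest on Sgk1. None of the 27 pairs passed the fold in the same direction on both diets or in both genotypes.

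**Figure D3:**
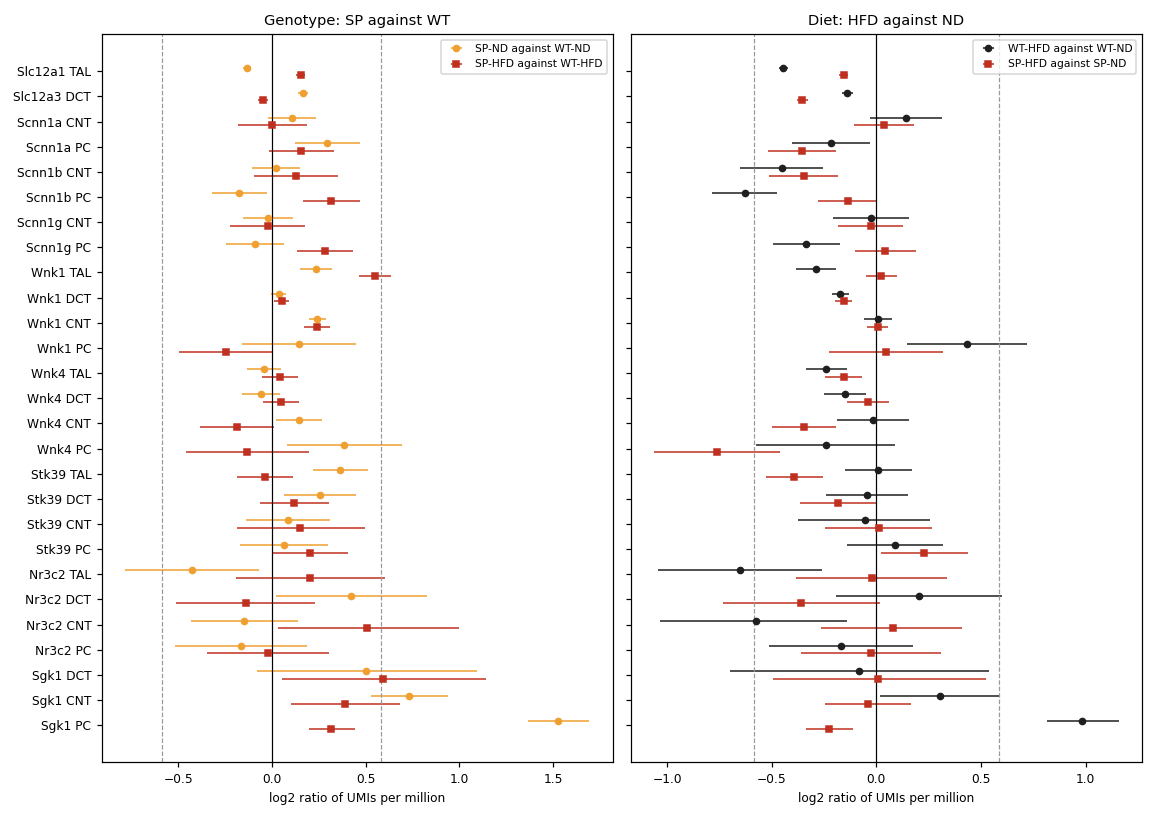
Log2 ratio of CPM for the 27 pairs of a gene and a class, SP against WT on each diet (left) and HFD against ND in each genotype (right); bars are 95% intervals for counting error and dashed lines mark 1.5-fold. Sgk1 in principal cells reaches 1.53 in SP-ND against WT-ND and 0.99 in WT-HFD against WT-ND, and most other pairs lie between the dashed lines.

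Both SP libraries were above both WT libraries in 7 of 27 pairs (25.9%), where 16.6% of all pairs were, and below them in 0 of 27, where 10.0% were. Under other settings Nr3c2 in PC was below in 5 of 12, Scnn1g in CNT in 3, and Wnk1 in CNT and in PC in 1 each. The 7 were Wnk1 in TAL and CNT, Stk39 in DCT and CNT, and Sgk1 in DCT, CNT and PC. With 2 libraries against 2, an order of this kind has no test that could pass 0.05. Of the 7, Wnk1 in TAL, Stk39 in DCT and Sgk1 in CNT and PC stood above under all 12 alternative settings, Stk39 in CNT under 11, Wnk1 in CNT under 10 and Sgk1 in DCT under 9. The ND ratio of Wnk1 in TAL fell to 0.04 with under 30% mitochondrial UMIs, against 0.24 as reported. Some of the 12 settings could not change the order of a pair. Dropping the filter on low genes keeps all levels, and PC without thin limb marker UMIs changes PC only. Leaving out cells with markers of neighbouring classes does not change TAL. No transporter or channel subunit was among the 7. Slc12a1 and Slc12a3 in CNT also stood above in both SP libraries and Slc12a3 in TAL below, but these pairs were not among the 27. Under other settings Scnn1a was above in PC in 2 of 12 and in CNT in 1. Among the regulators, Stk39 in PC was above in 2, Nr3c2 in DCT and in CNT in 1 each, and Sgk1 in TAL in 2. A setting that put the mean of a pair under 10 CPM counts here as not above. That held for Sgk1 in DCT with free RNA taken away and for Sgk1 in TAL in most settings. As reported, Sgk1 in TAL was above in both SP libraries, but its mean was too low to be counted.

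Along the tubule the entry paths passed over into each other within the CNT class. Cells of the DCT, CNT and PC classes were placed in 7 steps by how much of the marker score of the next class they carried, without use of the 10 genes. Slc12a3 was at 5568 to 7116 CPM in DCT cells without CNT markers, 4795 to 5998 CPM in CNT cells with DCT markers, 820.3 to 2051 CPM in CNT cells without either neighbour's markers and 6.14 to 111 CPM in CNT cells with PC markers. Scnn1b went up over the same steps from 18.0 to 21.8 CPM to 105 to 117 CPM, 191 to 313 CPM and 460.3 to 569.5 CPM, and Scnn1g from 4.23 to 9.4 CPM to 71.5 to 115 CPM, 290.3 to 343 CPM and 431 to 595 CPM. In the steps on either side of the CNT to PC passage, which hold 13 to 39 cells per library, both subunits stood above their level in PC without CNT markers (272 to 432 CPM and 288 to 374 CPM) in every library. The least so was Scnn1b in SP-HFD, at 409 CPM in PC with CNT markers and 359 CPM in PC without them, where the intervals overlap.

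Wnk1 did not follow Slc12a3 over the first steps. It was at 2409 to 2759.7 CPM in DCT cells without CNT markers and higher in each library, at 2874 to 3701 CPM, in CNT cells with DCT markers, where Slc12a3 was lower in each. From there it went down to 1206 to 1803 CPM, 274 to 673 CPM and 84.7 to 120.2 CPM in PC without CNT markers. In CNT cells with neither neighbour's markers it was at 1399, 1206, 1638 and 1803 CPM, with both SP libraries above both WT libraries, and in CNT cells with PC markers at 274, 442, 338 and 673 CPM, where they overlapped. Wnk4 went from 422 to 459 CPM in DCT cells without CNT markers to 208 to 288 CPM in CNT cells with neither and 64.8 to 108 CPM in PC without CNT markers. Sgk1 also went up from CNT cells with DCT markers to CNT cells with PC markers. It was at 52.6, 24.9, 38.4 and 31.1 CPM in CNT cells with DCT markers, where SP and WT libraries overlapped. In CNT cells with neither it was at 90.9, 129, 163 and 164 CPM, with PC markers at 218, 349.8, 528 and 458 CPM, and in PC without CNT markers at 218, 451, 657 and 554 CPM. The 2 SP libraries were above the 2 WT libraries in each of these 3 steps. Not listed is the step of PC with CNT markers, where WT-ND was at 352 CPM (interval 249 to 483) on 21 cells. No order of the genotypes is stated for that step. Hsd11b2, the enzyme that keeps glucocorticoids off the mineralocorticoid receptor, went from 11.1 to 23.5 CPM in DCT cells without CNT markers to 965 to 1544 CPM in CNT cells with neither and 2582 to 3718 CPM in PC without CNT markers.

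**Figure D4:**
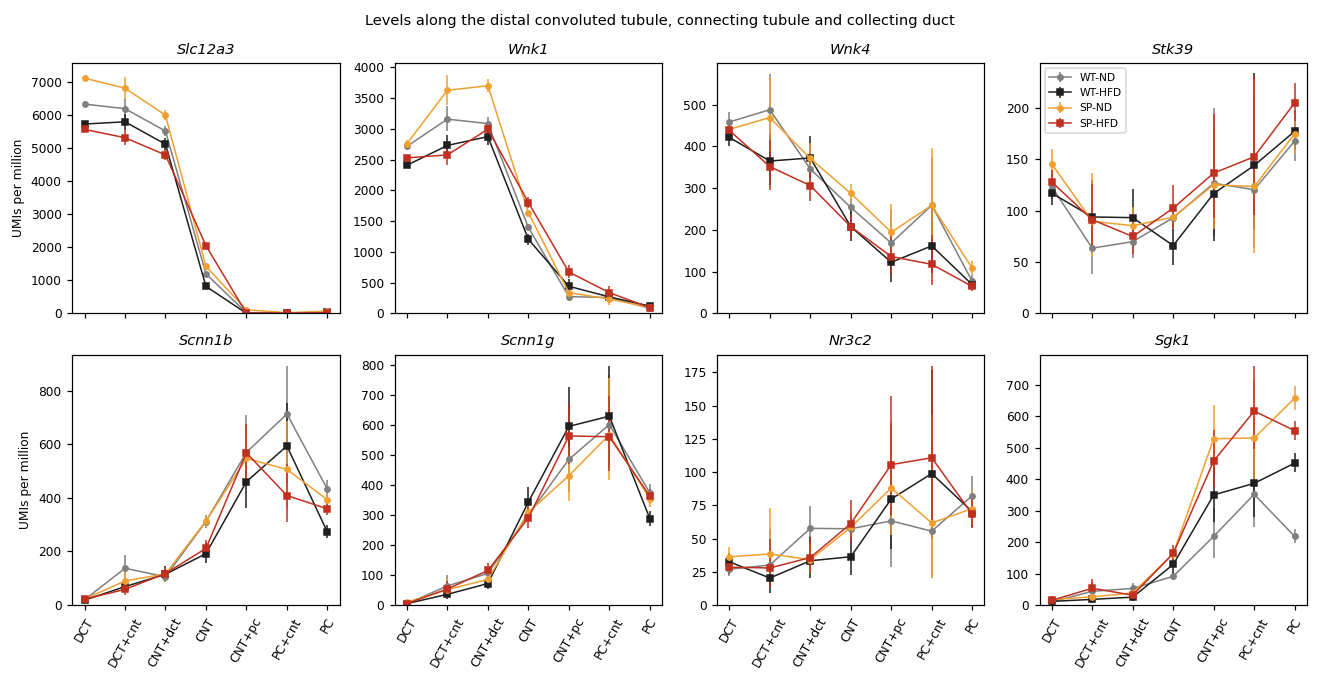
CPM of 8 of the genes over 7 steps from distal convoluted tubule (DCT) through connecting tubule (CNT) to principal cells (PC), where a lower-case name marks cells that also carry markers of that neighbour; each line is 1 library and bars are 95% Poisson intervals for counting error. Slc12a3 goes down from DCT to CNT, and Wnk1 goes up to CNT cells with DCT markers before it goes down. Scnn1b and Scnn1g are highest at the CNT to PC passage, and Sgk1 is higher in PC than in DCT. The steps at that passage hold 13 to 39 cells per library.

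By the correlation of log2(CPM + 1) over the 16 points of 4 classes and 4 libraries, the gene most like each of the 10 among 7837 genes was Slc9a3 (r = 0.991) for Slc12a1, Trpm6 (r = 0.986) for Slc12a3, Kitl (r = 0.970) for Scnn1a, Trpv4 (r = 0.985) for Scnn1b and Cav2 (r = 0.996) for Scnn1g. For the regulators it was Sall3 (r = 0.989) for Wnk1, Slc6a8 (r = 0.985) for Wnk4, Arfgap2 (r = 0.916) for Stk39, Frk (r = 0.975) for Nr3c2 and Aff1 (r = 0.985) for Sgk1. The points of 1 library share its preparation and depth, and the classes set most of the spread, so these values describe the order of the classes. Trpm6 was a marker that set the DCT class, and Aqp3, the second most like Sgk1 (r = 0.982), one that set PC.

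Other genes of the pathway were read from lists and not for how they moved. The partners of the cotransporters (potassium and chloride channels and the sodium pump, 44 pairs of a gene and a class with at least 10 CPM) had 0 higher and 3 lower in SP-ND against WT-ND and 2 higher and 2 lower in SP-HFD against WT-HFD, with median log2 ratios of -0.01 and 0.07. Over all pairs 2.61% were higher and 3.7% lower on ND, and 3.33% and 2.78% on HFD, so that these counts are near the background. Fxyd2, the gamma subunit of the sodium pump, was the 1 gene of any of these lists past 1.5-fold the same way in both genotype comparisons. In PC it was at 398 CPM in WT-ND and 406 in WT-HFD, against 249.3 in SP-ND and 228 in SP-HFD (-0.67 [-0.85 to -0.50] on ND and -0.83 [-0.99 to -0.68] on HFD). Fxyd2 is abundant in other tubule cells (6436 to 7227 CPM in DCT), and the proximal tubule markers in PC given above were also lower in both SP libraries; their part in the result was not tested.

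The genes that act on the WNK kinases, SPAK and ENaC (36 pairs) had 0 higher and 0 lower in SP-ND against WT-ND and 1 of each in SP-HFD against WT-HFD, with medians of 0.03 and 0.08. Klhl3, the adaptor through which WNK kinases are degraded, in DCT was at 331 CPM in WT-ND and 351 in WT-HFD, against 348 in SP-ND and 339 in SP-HFD, and Nedd4l at 108, 137, 129.9 and 150.3 CPM in PC. The genes of the proteases that cut ENaC and of their inhibitors (24 pairs) had 0 of either on ND and 1 higher on HFD, Spint1 in PC, with medians of 0.05 and 0.05. None of these medians lay far from the 0.02 and 0.05 of all pairs. The macula densa genes Nos1, Ptgs2 and Pappa2 had a mean under 10 CPM in all 4 classes and were not counted.

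The aldosterone and glucocorticoid response list (24 pairs) had more pairs past 1.5-fold between diets than between genotypes, as did all genes. It had 7 higher and 1 lower in WT-HFD against WT-ND and 7 higher and 0 lower in SP-HFD against SP-ND, and 4 higher and 2 lower in SP-ND against WT-ND and 1 higher and 0 lower in SP-HFD against WT-HFD. Over all pairs the shares higher and lower were 5.37% and 6.58% in WT-HFD against WT-ND, 5.43% and 4.22% in SP-HFD against SP-ND, and those given above for the genotype. The medians of the list were -0.01 and 0.19 between diets, beside -0.03 and 0.02 over all pairs, and 0.06 and -0.02 between genotypes. Per1, a clock gene that steroid hormones also induce, was higher on HFD in both genotypes in PC (29.5 CPM in WT-ND and 86.8 in WT-HFD, against 29.2 in SP-ND and 68.3 in SP-HFD), in CNT (9.34, 32.2, 15.98 and 29.1 CPM) and in DCT (10.2, 36.4, 15.6 and 28.4 CPM). Fkbp5 followed it in CNT (10.2, 27.9, 14.5 and 23.3 CPM) and Tsc22d3, which encodes GILZ, in TAL (8.86, 17.4, 8.33 and 13.99 CPM). In PC, Tsc22d3 was at 19.5, 47.2, 35.8 and 48.6 CPM, lowest in WT-ND as Sgk1 was, but not highest in SP-ND. Hsd11b2 in PC was at 3746, 2645, 3720.0 and 3533 CPM and Nr3c1, the glucocorticoid receptor, at 30.1, 29.1, 14.9 and 24.9 CPM. The genotypes overlapped for Hsd11b2, and both SP libraries were below both WT libraries for Nr3c1.

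Past 1.5-fold in both diet comparisons were also 3 other genes. Kcnj10, a basolateral potassium channel, was lower on HFD in PC (243 CPM in WT-ND and 89.4 in WT-HFD, against 230.1 in SP-ND and 134 in SP-HFD). Slc12a2, the cotransporter NKCC1, was higher on HFD in PC (32.8, 70.3, 23.7 and 55.0 CPM), and Ppp1r1a, an inhibitor of protein phosphatase 1, was higher on HFD in CNT (189, 320.1, 223 and 368 CPM).

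All 10 genes are protein-coding and none overlaps another counted gene on its strand in the GENCODE annotation of GRCm38. Slc12a1 lies at chr2:125152505-125230002, Slc12a3 at chr8:94329201-94366214, Scnn1a at chr6:125320659-125344943, Wnk1 at chr6:119923969-120038672, Wnk4 at chr11:101260567-101277409, Stk39 at chr2:68210445-68472268, Nr3c2 at chr8:76899442-77245012 and Sgk1 at chr10:21882184-21999903. Scnn1g (chr7:121734479-121768475) and Scnn1b (chr7:121865038-121918514), whose levels ran together over the classes, lie near each other on chromosome 7 and on the same strand.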

How the data were processed

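The authors deposited a count table per library: whole-number counts of UMIs per gene and barcode, not normalized, from 10x Genomics 3′ v3.1 libraries. The submitters' processing notes name Cell Ranger 2.1.1 and mm10, and the file headers name Cell Ranger 6.1.2. Barcodes with 200 to 5000 genes and under 50% mitochondrial UMIs were kept. A cell was given to the class with the highest mean marker score if that score was at least 0.15, on at least 3 UMIs of at least 2 markers. A cell in which another class had over 0.5 of that score was left out, which also served to remove doublets. Only DCT with CNT and CNT with PC were exempt from this as neighbours, and TAL with DCT was not. UMIs were summed per class and library and divided by all UMIs of the class. Intervals are exact Poisson for levels, exact Clopper-Pearson for shares and exact conditional binomial for log2 ratios, at 95%. Genes with a mean of at least 10 CPM over the 4 libraries of a class were counted, with 1.5-fold standing in for a call. With 1 library per condition no test was run. The genes named were the 10 genes, Slc5a2, pathway genes past 1.5-fold the same way in both genotype or both diet comparisons (at most 5 per class) and the most correlated genes; members and lists were chosen with earlier results of these data known. Other genes named here (Klhl3, Nedd4l, Spint1, Hsd11b2, Nr3c1, Aqp2 and Tsc22d3 in PC) were chosen after their values were seen. Analyses used Python 3 (numpy 2.4.6, scipy 1.17.1, scikit-learn 1.9.0, python-igraph 0.11.9) and were tested on simulated data. Clusters for the alternative were made per library from 30 components of 2000 variable genes with 15 neighbours, and a doublet score from simulated doublets. Alternatives were CPM over non-mitochondrial UMIs, ratios centred on the class median, under 30% mitochondrial UMIs, at least 1000 UMIs per cell, no cells high in simulated doublets, classes from clusters, at least 6 marker UMIs, cells weighted equally, free RNA taken away, no filter on low genes and, chosen after seeing the data, cells with markers of neighbouring classes left out and PC without thin limb marker UMIs. Free RNA was taken as 10% of the UMIs of a class in each library, with the profile of its pooled podocytes, endothelial and immune cells. Protein sequences were not used here.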

Additional observations from a re-analysis of the deposited data

Results flagged for a closer look

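For 4 pairs of a gene and a class, 2 like comparisons pointed in opposite directions with both counting intervals off 0; each difference between comparisons was not tested, and with 1 library per condition it cannot be. Slc12a1 in TAL had a genotype log2 ratio of -0.13 on ND and 0.15 on HFD. Slc12a3 in DCT had 0.17 on ND and -0.05 on HFD. Scnn1b in PC had -0.17 on ND and 0.32 on HFD. Sgk1 in PC had a diet ratio of 0.99 in WT and -0.22 in SP.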

How the results depend on the processing

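No paired analysis was possible because each condition had 1 library, which also leaves no replicate to leave out. Of 1292 log2 ratios recomputed under 12 alternatives (10 planned, 2 chosen after seeing the data), 1168 stayed inside their counting interval, 122 left it and 2, of a pair past 1.5-fold, changed sign. These were Sgk1 in DCT in SP-HFD against WT-HFD, -0.32 with cells weighted equally and -0.039 without the cells high in simulated doublets, against 0.59 as reported. Only ratios past 1.5-fold as reported were counted for a change of sign. Smaller ratios that changed sign are held in the 1168 and the 122. Wnk1 in PC in SP-ND against WT-ND, for example, kept its sign under 9 of 12 alternatives. The 108 ratios recomputed with no filter on low genes could not move, nor could those of a class that a setting left as it was.

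Counts of pairs past 1.5-fold are small and moved with the settings. SP-HFD against WT-HFD (1 pair) had 0 with ratios centred on the class median, under 30% mitochondrial UMIs and without the cells high in simulated doublets, 3 with classes from clusters, and 2 with neighbouring classes left out as mixed or with PC without thin limb markers. SP-ND against WT-ND (2 pairs) had 4 with classes from clusters, with cells weighted equally and with PC without thin limb markers, and 1 under 30% mitochondrial UMIs. WT-HFD against WT-ND (3 pairs) had 5 with free RNA taken away and with neighbouring classes left out, and 6 with cells weighted equally and with PC without thin limb markers. SP-HFD against SP-ND (1 pair) had 3 with PC without thin limb markers. The causes were not tested. The share of all pairs past the fold was taken under the reported setting only. The counts under the other settings therefore cannot be set against a background. Sgk1 in PC stayed past 1.5-fold under all 12 in SP-ND against WT-ND (1.52 to 2.03) and in WT-HFD against WT-ND (0.88 to 1.18), and Wnk4 in PC in SP-HFD against SP-ND (-0.91 to -0.61). Thinning to 1000 UMIs was bound to lower the share of cells with a UMI, since the median cell of each distal class was deeper. It did so beyond the counting interval for 111 of 112 pairs of a value and a library. That number does not tell whether an order of the libraries holds at equal depth. Depth limits Nr3c2 in all classes and Sgk1 in TAL and DCT most.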
